A study of Mus musculus with 9 samples.

Results

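The genes described here are those of the cytosolic ribosomal proteins, the proteins that build the small and large ribosomal subunits, in RNA from mouse liver after an overdose of APAP (the usual abbreviation of acetaminophen). They were taken by symbol: rows beginning Rps or Rpl followed by a number, the stalk genes Rplp0, Rplp1 and Rplp2, and Rpsa, without the S6 kinases (Rps6k) and without pseudogene rows (-ps), provided that at least 3 libraries held at least 10 counts. Of 28956 rows in the count table, 91 matched by symbol and 89 met the count minimum. These 89 comprise 48 large subunit rows, 36 small subunit rows, 3 stalk rows and 2 rows, Rps19bp1 and Rpl7l1, that match by symbol but are not counted among the structural proteins of the ribosome. The pair left out by the count minimum was Rpl39l, with at most 4 counts in a library, and Rpl3l, with 13 counts in its highest library. The kept rows with the lowest total counts were Rpl32l, with 4 to 29 counts, and Rpl24, with 55 to 148 counts. Rpl24 was above 10 counts in all 9 libraries. All 89 rows also passed the filter on low counts applied to the whole table, which kept 17582 genes.

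Ribosomal proteins are made in near-equal numbers, because each ribosome carries a single copy of most of them, and their mRNAs are among the most abundant and most stable in liver. Many of these mRNAs begin with a C followed by a run of pyrimidines (the TOP motif), through which mTORC1 and the RNA-binding protein LARP1 adjust their translation and stability together. Free RPL5 and RPL11 bind MDM2, the inhibitor of p53, when ribosome assembly is disturbed.

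The libraries come from C57BL6J mice aged 8 weeks, and all 9 samples had received APAP at 300 mg/kg intraperitoneally in saline. The APAP group received nothing further according to the labels, while the APAP_MSC and APAP_HDF groups also received 500000 MSC or HDF cells intravenously in saline, at 90 min from the APAP dose. A time of 24 h stands in the title of the series. The labels do not spell out MSC or HDF, and no liver without APAP is among these libraries. Each group has 3 libraries, and since nothing states that they come from separate animals, p-values measure only the spread between these samples. The labels name hepatocytes, but the material was a piece of whole liver: the 8 hepatocyte markers summed to 79694 to 107920 CPM (counts per 1000000 counts, after scaling), and macrophage, endothelial and stellate cell markers were present beside them.

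Depth was 53267000 to 63176000 counts per library. The scaling factors (TMM, which equalise the bulk of genes between libraries) were 0.934 to 0.977 in APAP_MSC, 0.982 to 1.05 in APAP and 0.983 to 1.11 in APAP_HDF. Mitochondrially encoded genes held 6.99% to 7.24% of counts in APAP_MSC, 6.64% to 7.16% in APAP and 6.20% to 6.46% in APAP_HDF. Their part in the results below was not tested. In bulk tissue, fewer cells of a type and less RNA per cell cannot be told apart.

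The start of the mRNA is shown for 10 genes on which the results turn: 4 of the 5 that differed between the groups receiving cells, the Rps27 family with its near-identical copies, Rps6 as a gene at similar levels in all groups, and a pair with long pyrimidine runs. Each line gives 15 bases before and 15 bases from the transcription start of the RefSeq annotation (GRCm38.p6), 5′ to 3′ on the strand of the gene. Capitals mark a C followed by at least 4 pyrimidines that begins within 5 bases of the start.
Rps21, plus strand, chr2:180257364-180257393: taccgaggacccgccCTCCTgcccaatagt
Rps12, minus strand, chr10:23787195-23787224: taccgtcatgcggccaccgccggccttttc
Rpl36a, plus strand, chrX:134585639-134585668: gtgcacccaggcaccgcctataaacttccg
Rpl39, minus strand, chrX:37085208-37085237: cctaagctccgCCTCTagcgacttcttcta
Rps27, minus strand, chr3:90213634-90213663: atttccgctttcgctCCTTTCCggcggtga
Rps27rt, minus strand, chr9:114982725-114982754: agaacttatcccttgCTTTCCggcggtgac
Rps27l, plus strand, chr9:66946071-66946100: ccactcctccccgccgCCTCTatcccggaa
Rps6, minus strand, chr4:86857353-86857382: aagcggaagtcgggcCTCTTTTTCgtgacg
Rpl27a, plus strand, chr7:109519180-109519209: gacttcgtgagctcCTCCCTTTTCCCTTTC
Rpl35, minus strand, chr2:39005117-39005146: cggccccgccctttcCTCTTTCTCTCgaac
The run begins exactly at the start in Rps21, Rps27, Rps27rt, Rps6 and Rpl35. In Rps12 and Rpl36a no such run begins within 5 bases of the annotated start, though their windows hold one further downstream.

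Of the 89 rows, 65 had an entry in the RefSeq promoter table. A pyrimidine run near the start was found in 31 of them (47.7%), against 3549 of 15192 genes of the count table (23.4%) and 17 of 68 mitochondrial ribosomal protein genes (25%). A run exactly at the start was found in 15 of the 65 (23.1%), in 3.06% of all genes and in none of the 68 mitochondrial ribosomal protein genes. Other letters were searched on both strands of the 300-base windows that reach 250 bases upstream. CCGGAAG, a core recognised by ETS factors, stood in 38.5% of the 65, in 15.1% of all genes and in 36.8% of the mitochondrial ribosomal protein genes. GCCATNTT, the core of YY1 sites, stood in 20%, 8.17% and 30.9% of these sets, so that neither core was more frequent in the rows alone. GGGCGG, the GC box, stood in 61.5%, 56.2% and 50%, and TATAAA in 12.3%, 11.2% and 7.35%. These are matches of letters and not measured binding.

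Together the 89 rows held 1.5% to 1.87% of all counts in a library. The most abundant was Rpsa, which encodes a small subunit protein also known as the laminin receptor, at a mean of 701 CPM, followed by Rpl4, a large subunit protein that lines the exit tunnel, at 650 CPM. Rplp0 (540 CPM), Rps6 (464 CPM) and Rplp1 (463 CPM) came next. Within 10-fold of Rpsa lay 71 of the 89 rows. Per kilobase of transcript the highest levels belonged to the stalk genes Rplp1, at 927 CPM per kb, and Rplp2, at 590 CPM per kb, and then to Rpl41 at 587 CPM per kb.

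A few core ribosomal proteins were counted at levels far below the rest. Rpl24 had a mean of 1.64 CPM, Rps10 2.44 CPM and Rpl13a, a common reference gene, 14.3 CPM, although each protein belongs to every ribosome. In GENCODE M21, 81.7%, 64.7% and 57.4% of the 50-base stretches of their transcripts also occur in transcripts of another gene. Such sharing was common: 81 of the 83 rows with a transcript in that annotation shared at least 1 stretch, and 51 shared at least 50%. Over those 83 genes, level and percentage shared had a Spearman correlation of -0.04, a description across genes within these libraries. Reads of such genes may be split or dropped in counting, so the levels of single ribosomal protein genes here are uncertain. Among the other low rows were paralogues or copies: Rpl32l (0.289 CPM), Rps3a3 (3.34 CPM), Rpl36al (3.46 CPM) and Rps27rt (10.5 CPM).

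The 89 rows moved together from library to library. The median of their log2 levels, each set against the gene's own mean over the 9 libraries, was 0.09, 0.07 and -0.10 in APAP libraries 1 to 3. For APAP_MSC the medians were 0.11, 0.23 and 0.01, and for APAP_HDF they were -0.21, -0.06 and -0.14. All 3 APAP_HDF libraries lay below all 3 APAP_MSC libraries, and the APAP libraries reached into the range of both. APAP_MSC library 2 was the highest library for 65 of the 89 rows and APAP_HDF library 1 the lowest for 62.

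**Figure D1:**
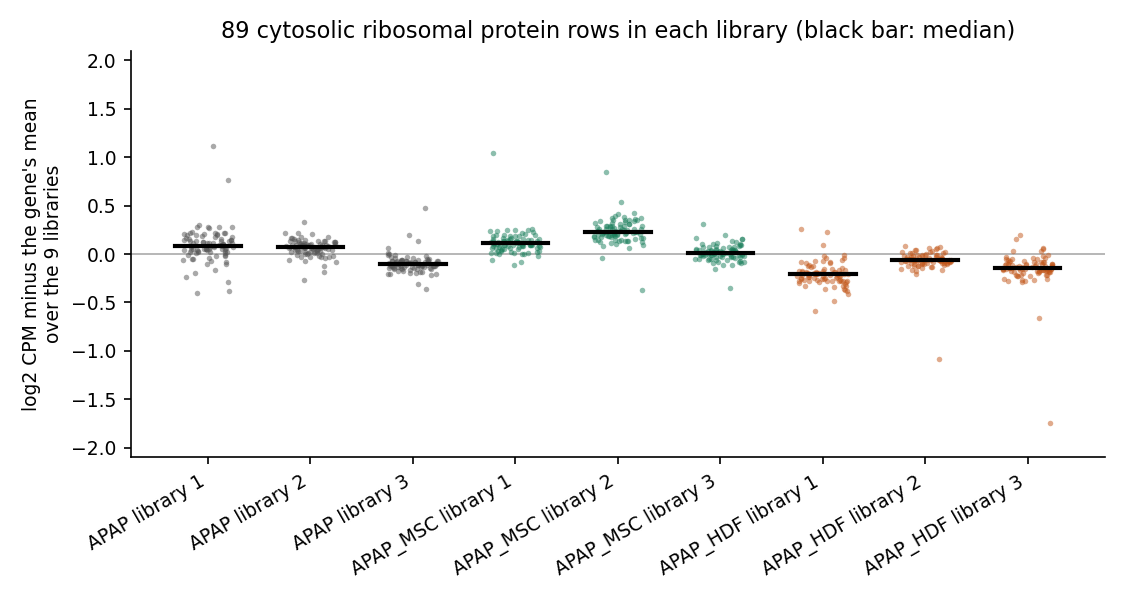
Points are the 89 ribosomal protein rows in each of the 9 libraries, as log2 CPM minus the gene's mean over the libraries, with a black bar at the median. The medians run from -0.21 in APAP_HDF library 1 to 0.23 in APAP_MSC library 2, and most genes of a library lie close to its median.

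The first principal component held 72.5% of the variance of the 89 rows, 60.6% once group means were removed, and 32% over all genes tested. The SD of a gene's log2 level between libraries had a median of 0.158 over the 89 rows, and 0.0728 once each library's median over the rows was subtracted. It was 0.291 over all genes and 0.190 over other genes with a mean of at least 50 CPM and no more than Rpsa. Much of the spread of a single ribosomal protein gene was therefore a shift that it had in common with the others, within groups as well as between them.

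The largest comparison was that of APAP_MSC with APAP_HDF, the groups that received cells. Here 5 of the 89 rows were higher in APAP_MSC and none was lower by edgeR's quasi-likelihood test (Benjamini-Hochberg adjusted p under 0.05 over all 17582 genes). This is 5.62% of the rows, and 4.78% of all genes were called higher and 8.79% in either direction. The genes were Rpl21, Rpl36a, Rpl39, Rps12 and Rps21, with differences of 1.32-fold to 1.37-fold. The share called was thus near that of all genes, whereas the direction was nearly uniform: 86 of 89 rows (96.6%) had a positive fold change against 47.7% of all genes, with a median of 0.25 on the log2 scale against -0.02.

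Rps12, a small subunit protein of the beak, was measured at 190, 204 and 172 CPM in APAP_MSC, at 184, 182 and 156 CPM in APAP and at 140, 149 and 140 CPM in APAP_HDF. All APAP_HDF libraries lay below the 6 others. The log2 difference between APAP_MSC and APAP_HDF was 0.40 ± 0.11 (SE, n = 3 per group; edgeR adjusted p = 0.0380).

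Rps21, another small subunit protein, stood at 112, 126 and 109 CPM in APAP_MSC, 96.7, 105 and 84.9 CPM in APAP and 75.5, 95.4 and 87.4 CPM in APAP_HDF. The APAP_MSC libraries were above all others, and the APAP and APAP_HDF libraries overlapped. APAP_MSC exceeded APAP_HDF by 0.43 ± 0.12 (SE, log2; edgeR adjusted p = 0.0460).

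Among large subunit genes, Rpl21 had 51.5, 60.2 and 50.4 CPM in APAP_MSC, 49.5, 45.4 and 43.0 CPM in APAP and 39.1, 44.0 and 38.1 CPM in APAP_HDF. The APAP_MSC libraries were highest without overlap, and 1 APAP library lay within the APAP_HDF range. The difference between the groups with cells was 0.42 ± 0.10 (SE, log2; edgeR adjusted p = 0.0321).

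Rpl36a, whose protein sits at the exit site for tRNA, had 131, 143 and 121 CPM in APAP_MSC, 126, 120 and 97.2 CPM in APAP and 89.2, 102 and 97.3 CPM in APAP_HDF. APAP_MSC and APAP_HDF did not overlap, and APAP overlapped both. The difference was 0.45 ± 0.12 (SE, log2; edgeR adjusted p = 0.0370). Its paralogue Rpl36al, at 2.98 ± 0.65 CPM in APAP_HDF and 4.01 ± 0.25 CPM in APAP_MSC (SD, n = 3), differed by 0.43 ± 0.21 with an edgeR adjusted p of 0.231.

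Rpl39, whose small protein lines the exit tunnel, had 61.8, 73.9 and 58.0 CPM in APAP_MSC, 60.1, 58.0 and 48.8 CPM in APAP and 43.7, 51.6 and 46.0 CPM in APAP_HDF. APAP_MSC and APAP_HDF did not overlap, while APAP reached into both ranges. The difference was 0.46 ± 0.12 (SE, log2; edgeR adjusted p = 0.0395).

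**Figure D2:**
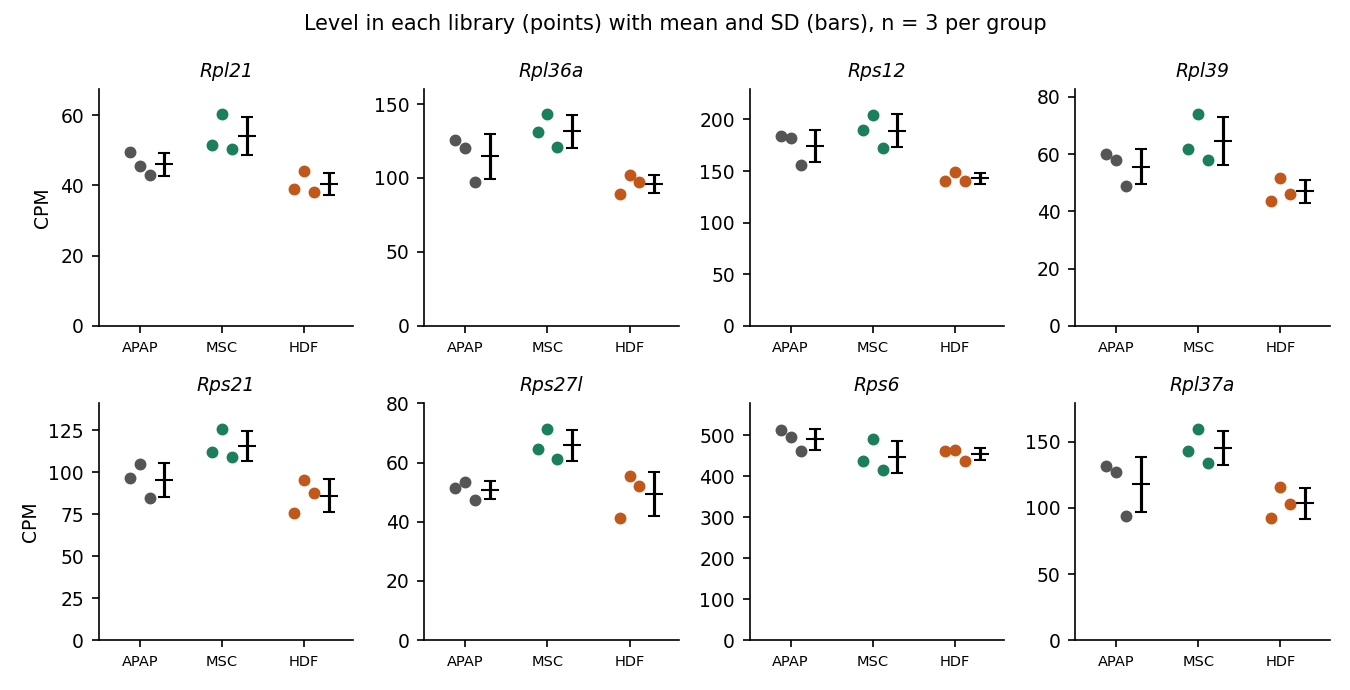
Each panel gives 1 gene, with the CPM of each library as a point and the group mean and SD as a bar, for APAP, APAP_MSC (MSC) and APAP_HDF (HDF). Rpl21, Rpl36a, Rps12, Rpl39 and Rps21 are higher in every APAP_MSC library than in every APAP_HDF library, while the 3 groups of Rps6 overlap.

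These 5 calls depended on single libraries: none of the 89 rows was called without APAP_MSC library 1 or 2 or without APAP_HDF library 1 or 3, and 1 was called (Rpl21) without APAP_HDF library 2. Leaving out APAP library 1 gave 9 calls and leaving out APAP library 3 gave 11, and DESeq2 called 20 on the same counts.

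The difference extended beyond the rows that were called. In 64 of the 89 rows (71.9%) every APAP_MSC library was above every APAP_HDF library, against 16.8% of all genes, and in none was the order the opposite, against 16.4%. Similar gene groups also had this order: 45 of 81 mitochondrial ribosomal protein genes and 25 of 28 short nuclear mRNAs of oxidative phosphorylation. So did 45 of 115 other genes with coding transcripts up to 0.5 kb. Fold changes were positive in 88.9%, 100% and 70.4% of these groups, so the pattern was not particular to the rows. An unadjusted p under 0.05 was reached by 45 rows (50.6%), all higher in APAP_MSC, against 12.4% of all genes in that direction and 25.5% in either. By role, 34 of 36 small subunit rows and 47 of 48 large subunit rows had positive fold changes, with medians of 0.25 and 0.24. Group means stood in the order APAP_MSC, APAP, APAP_HDF in 71 of the 89 rows. Because the rows share each library's shift, these counts are not independent observations.

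Several rows came close to the threshold. Rpl37a had the largest difference among genes of at least 50 CPM, 0.49 ± 0.14, with 146 ± 13.1 CPM in APAP_MSC and 103 ± 11.8 CPM in APAP_HDF (SD, n = 3; edgeR adjusted p = 0.0523). Rps24 differed by 0.37 ± 0.11 (edgeR adjusted p = 0.0532) and Rps19, which is mutated in Diamond-Blackfan anaemia, by 0.33 ± 0.10 (edgeR adjusted p = 0.0584). The stalk genes Rplp1 and Rplp2 differed by 0.38 ± 0.12 and 0.31 ± 0.11, and Rplp0 by 0.18 ± 0.12 (edgeR adjusted p = 0.0827, 0.114 and 0.374).

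None of the other rows named in this paragraph passed the test. Rpl5 and Rpl11, the MDM2-binding pair, differed by 0.10 ± 0.12 and 0.24 ± 0.11. Rpl3, near the peptidyl transferase centre, differed by 0.15 ± 0.12, Rpl10, which joins late in assembly, by 0.21 ± 0.10, and Rpl26 by 0.31 ± 0.13. Rpl22 and its paralogue Rpl22l1 differed by 0.26 ± 0.11 and 0.38 ± 0.15. In the small subunit the differences were 0.27 ± 0.12 for Rpsa, 0.12 ± 0.11 for Rps3, 0.20 ± 0.12 for Rps14 and 0.21 ± 0.12 for Rps4x. Rpl7l1 and Rps19bp1, the rows that are not structural ribosomal proteins, differed by 0.13 ± 0.10 and 0.22 ± 0.12. Adjusted p for these 13 genes was between 0.132 and 0.644.

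A few rows stood apart from the common pattern. Rps6, the small subunit protein phosphorylated by the S6 kinases, was measured at 438, 490 and 415 CPM in APAP_MSC, 514, 495 and 462 CPM in APAP and 461, 464 and 437 CPM in APAP_HDF. The 3 groups overlapped, and the log2 difference between APAP_MSC and APAP_HDF was -0.02 ± 0.11 (SE; edgeR adjusted p = 0.928).

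Rps4l, a paralogue of Rps4x, ranged from 17.8 to 32.8 CPM and did not follow the common shift. Its SD between libraries was 0.316 and became 0.394 once the median of the rows was subtracted. Its difference between APAP_MSC and APAP_HDF was -0.08 ± 0.22 (edgeR adjusted p = 0.860). Rpl13a, at 15.1 ± 1.42 CPM in APAP_MSC and 14.4 ± 0.862 CPM in APAP_HDF (SD, n = 3), differed by 0.07 ± 0.13 (edgeR adjusted p = 0.758).

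The Rps27 family separated in level rather than in direction. Rps27 was counted at 116 ± 9.41 to 132 ± 20.8 CPM in the 3 groups (SD, n = 3), Rps27l at 49.5 ± 7.38 to 65.8 ± 5.15 CPM and Rps27rt at 9.96 ± 0.528 to 11.5 ± 1.07 CPM. In Rps27 98.6% of 50-base stretches are shared with other genes, in Rps27rt 91.1% and in Rps27l 13.7%, so that the first pair cannot be separated with certainty. Differences between APAP_MSC and APAP_HDF were 0.18 ± 0.13 for Rps27, 0.18 ± 0.14 for Rps27rt and 0.41 ± 0.12 for Rps27l, with edgeR adjusted p of 0.419, 0.446 and 0.0518.

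In the comparison of APAP_MSC with APAP, which asks what differed in livers of mice that also received MSC, none of the 89 rows was called, against 6.19% of all genes (1088 of 17582), of which 2.68% were higher and 3.51% lower. Of the rows 4 had an unadjusted p under 0.05, all higher in APAP_MSC, against 9.98% of all genes in that direction, and DESeq2 and limma-voom also called none. The median log2 difference of the rows was 0.11 against -0.01 for all genes, and 76 of 89 were positive (48.9% of all genes), but with library size alone in place of TMM the median was -0.0016 with 43 positive. That scaling moved the median of all genes to -0.12, and relative to all genes the rows' median was 0.12 under both scalings. Every APAP_MSC library was above every APAP library in 8 rows (8.99%), against 13.7% of all genes.

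The smallest p in that comparison belonged to Rps27l, a paralogue of Rps27 that is a known p53 target. It had 64.6, 71.5 and 61.4 CPM in APAP_MSC and 51.6, 53.3 and 47.5 CPM in APAP, without overlap, and 41.2, 55.4 and 52.0 CPM in APAP_HDF. The log2 difference from APAP was 0.37 ± 0.12 (SE; edgeR adjusted p = 0.0833). It passed in a fit to these 2 groups alone (adjusted p = 0.047) and without APAP_HDF library 1 (adjusted p = 0.0285).

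Rps19bp1, which encodes a protein that binds the S19 protein, had 15.5, 15.1 and 14.0 CPM in APAP_MSC and 10, 12.4 and 12.7 CPM in APAP, without overlap, and differed by 0.34 ± 0.12 (edgeR adjusted p = 0.116). Rps21 and Rpl21 differed by 0.28 ± 0.12 and 0.23 ± 0.10 (edgeR adjusted p = 0.189 and 0.209). For the 75 rows of at least 50 CPM the SE of a difference was 0.09 to 0.14, so changes of the size seen in most rows were not detectable with 3 libraries per group.

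In the comparison of APAP_HDF with APAP none of the rows was called, and none of all 17582 genes was (0%). An unadjusted p under 0.05 was reached by 6 rows, all lower in APAP_HDF, and by 8.29% of all genes (4.78% lower, 3.51% higher), while DESeq2 called 83 genes, none of them among the rows, and limma-voom called 0. The median log2 difference was -0.16 against 0.00 for all genes, with 83 of 89 rows negative and 49.1% of all genes positive. It stayed between -0.15 and -0.18 under the scalings to library size alone, RLE and upper quartile, and was -0.00029 when the rows' own summed count served as library size. Every APAP_HDF library was below every APAP library in 21 rows (23.6%), against 6.08% of all genes, and above in none, against 5.66%.

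This comparison and that of APAP_MSC with APAP use the same APAP libraries, so their values are set side by side without a test. Rps12 differed from APAP by -0.29 ± 0.11 in APAP_HDF (edgeR adjusted p = 0.575) and by 0.12 ± 0.11 in APAP_MSC (edgeR adjusted p = 0.567). Rpl6l differed by -0.27 ± 0.11 and -0.10 ± 0.11 (edgeR adjusted p = 0.582 and 0.645). Among low rows, Rpl24 had 1.23, 1.37 and 0.996 CPM in APAP_HDF and 2.67, 1.62 and 1.54 CPM in APAP, without overlap, a difference of -0.70 ± 0.29 (edgeR adjusted p = 0.583). Rpl32l rested on 4 to 29 counts and differed by -1.45 ± 0.52 (edgeR adjusted p = 0.575).

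**Figure D3:**
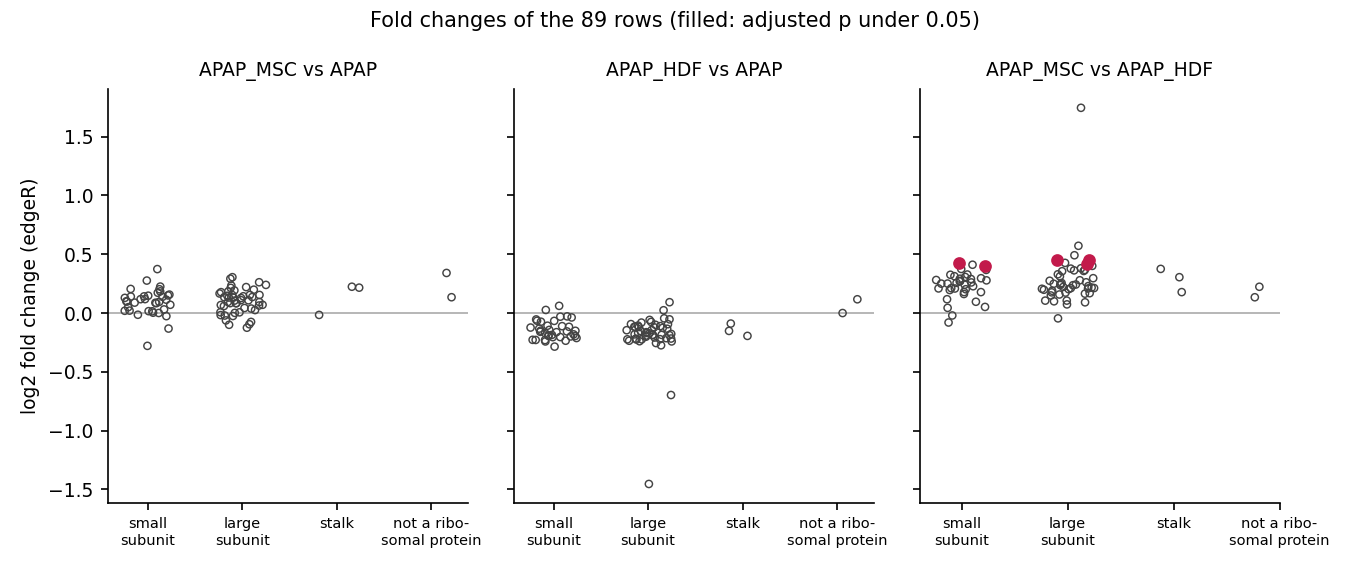
Each point is the edgeR log2 fold change of 1 of the 89 rows in the comparison named above the panel, by role, and filled points have an adjusted p under 0.05. Filled points occur in the right panel alone, where 86 of 89 rows are above 0, while 83 of 89 are below 0 in the middle panel.

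The scale of the values matters for a family that moves together. As a share of all counts the rows held 1.68%, 1.83% and 1.65% in APAP_MSC, 1.87%, 1.76% and 1.64% in APAP and 1.63%, 1.61% and 1.5% in APAP_HDF. After TMM scaling their summed levels were 17966, 19609 and 16864 CPM in APAP_MSC, 17979, 17899 and 15599 CPM in APAP and 14663, 16160 and 15296 CPM in APAP_HDF. On both scales the APAP_HDF libraries were below the APAP_MSC libraries, and APAP_MSC overlapped APAP. With library size alone, the median difference between APAP_MSC and APAP_HDF was 0.13 with 77 rows positive and none called. That scaling placed the median of all genes at -0.14, and relative to all genes the rows' median was 0.27 under both scalings.

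**Figure D4:**
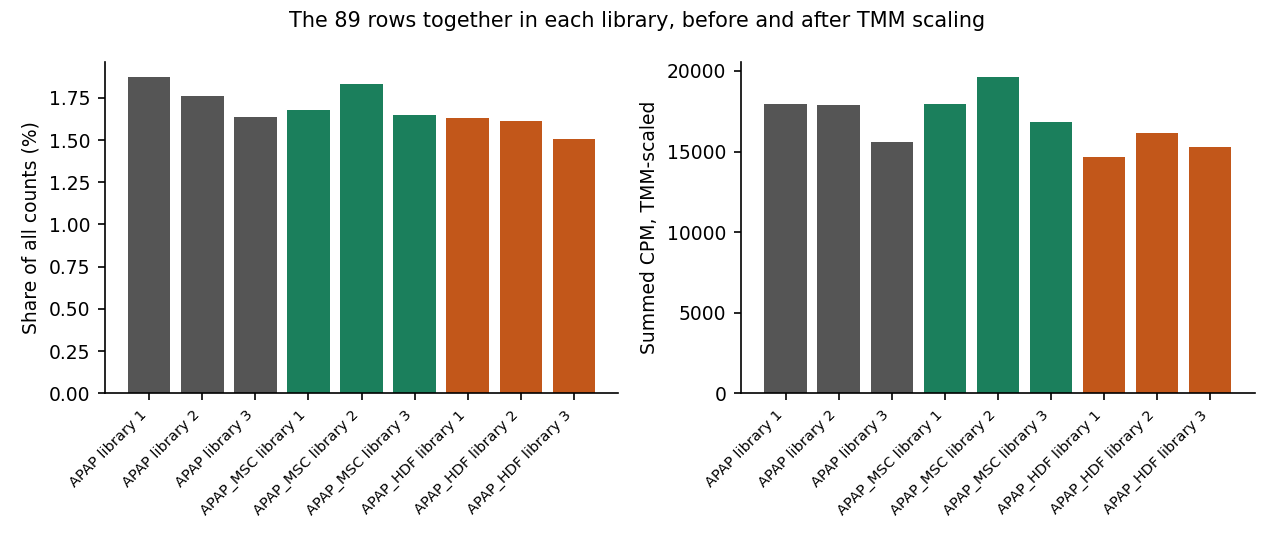
Bars give the 89 rows together in each library, as a percentage of all counts (left) and as summed CPM after TMM scaling (right). The summed level is highest in APAP_MSC library 2, at 19609 CPM, and lowest in APAP_HDF library 1, at 14663 CPM.

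When the summed counts of the 89 rows served as library size, so that each was read against the others, no row was called and the median differences were 0.03, 0.00 and 0.01 in the 3 comparisons. A p that misses the threshold does not show that relative levels within the family were equal. Rows of ribosomal protein pseudogenes (-ps) were read alongside: 142 of 216 such rows were tested, together they held 9.32% to 9.76% of the count of the 89 rows, and their median difference between APAP_MSC and APAP_HDF was 0.27, with 3 of 142 called higher. Rows with at least 50% of 50-base stretches shared and rows with less had medians of 0.25 and 0.25.

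Ribosomal protein mRNAs are short, and the differences in these libraries varied with transcript length. Among other genes, the median log2 difference between APAP_MSC and APAP_HDF was 0.25 for coding transcripts up to 0.5 kb (115 genes), 0.21 from 0.5 to 0.75 kb, 0.13 from 0.75 to 1 kb, 0.09 from 1 to 1.5 kb and -0.12 above 3 kb. Of the 83 ribosomal protein rows with a length, 77 fell in the first 4 of these classes, and the 6 longer ones were too few per class to be set beside other genes. The 77 had medians of 0.29, 0.29, 0.22 and 0.18. Between APAP_MSC and APAP the other genes had medians of 0.23, 0.17, 0.09 and 0.10 and the ribosomal protein rows 0.17, 0.11, 0.08 and 0.06. Between APAP_HDF and APAP the other genes had -0.03, -0.03, -0.02 and -0.01 and the ribosomal protein rows -0.14, -0.18, -0.14 and -0.19. Set beside genes of like length up to 1.5 kb, the medians of the rows were higher between APAP_MSC and APAP_HDF, lower between APAP_MSC and APAP and lower between APAP_HDF and APAP, differences of medians that were not tested. The part of transcript length in the differences of single genes was not tested.

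**Figure D5:**
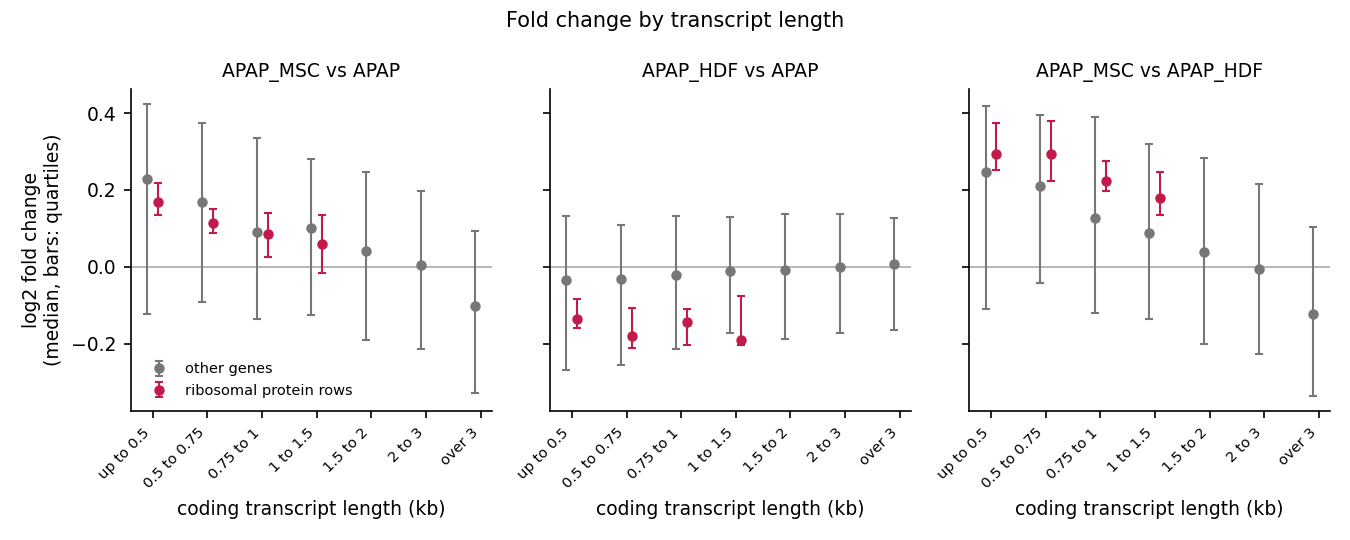
Median log2 fold change, with quartiles as bars, of the ribosomal protein rows and of other genes by coding transcript length in kb, for the 3 comparisons. In the right panel other genes go from 0.25 in the shortest class to -0.12 in the longest. In the middle panel the medians of the ribosomal protein rows lie below those of other genes, with overlapping quartile bars. This holds in the 4 classes up to 1.5 kb, the only ones plotted for the rows.

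Related gene groups were read beside the rows, each as counts of genes past the same test and without a test of the lists against each other. Of all genes, 4.78% were called higher and 4% lower in APAP_MSC than in APAP_HDF, and 2.68% higher and 3.51% lower than in APAP. Of 81 mitochondrial ribosomal protein genes, whose products build the separate ribosome of mitochondria, 12 (14.8%) were higher and none lower in APAP_MSC than in APAP_HDF, with a median of 0.21. Mrps15 had 32.7 ± 2.74 CPM in APAP_MSC and 22.6 ± 0.298 CPM in APAP_HDF (SD, n = 3; edgeR adjusted p = 0.00990). Against APAP 2 of the 81 (2.47%) were higher in APAP_MSC (median 0.17), and none was called in APAP_HDF (median -0.04). Of 28 short nuclear mRNAs of oxidative phosphorylation, 7 (25%) were higher in APAP_MSC than in APAP_HDF (median 0.37) and 2 (7.14%) than in APAP (median 0.36), and the median was -0.01 in APAP_HDF against APAP. Ndufs5, a subunit of complex I, stood at 47.6 ± 3.61 CPM in APAP_MSC, 33.2 ± 3.42 CPM in APAP_HDF and 35.5 ± 1.05 CPM in APAP.

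A list of 20 genes with TOP-type mRNAs held translation factors and other genes, such as Npm1 and Hnrnpa1. None of the 20 was called in any comparison by edgeR. Their medians were -0.07 in APAP_MSC and -0.06 in APAP_HDF against APAP and -0.07 between those groups. At an unadjusted p under 0.05 the counts were 3, 1 and 3 of 20, against 22.6%, 8.29% and 25.5% of all genes. Eef1g, an elongation factor subunit, differed by 0.27 ± 0.12 between APAP_MSC and APAP_HDF, and Pabpc1, the poly(A) binding protein, by -0.31 ± 0.11 (edgeR adjusted p = 0.169 and 0.101). The 31 ribosomal protein rows with a pyrimidine run near the start had a median of 0.26 in that comparison. The 34 with a promoter entry and no run near the start had 0.24.

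Fau and Rack1, ribosomal proteins with other symbols, were not called in any comparison. Fau, which encodes a small subunit protein fused to a ubiquitin-like protein, differed by 0.21 ± 0.11 between APAP_MSC and APAP_HDF and Rack1, a scaffold on the small subunit, by 0.12 ± 0.11 (edgeR adjusted p = 0.246 and 0.560).

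Of 29 ribosome biogenesis factors, 2 (6.9%) were lower and none higher in APAP_MSC than in APAP_HDF, with a median of -0.14. They were Utp20, of the small subunit processome, with 28.9 ± 2.22 against 41.1 ± 6.53 CPM (edgeR adjusted p = 0.0354), and Ncl (nucleolin), with 249 ± 10.1 against 325 ± 35.0 CPM (SD, n = 3; edgeR adjusted p = 0.0495). None was called against APAP. None of 11 genes of RNA polymerase I, which transcribes ribosomal RNA, was called in the 3 comparisons by edgeR. In each, 1 had an unadjusted p under 0.05. Of all genes, 22.6% had such a p in APAP_MSC against APAP, 8.29% in APAP_HDF against APAP and 25.5% between APAP_MSC and APAP_HDF.

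Of 19 mTORC1 and TOP mRNA regulators, 4 (21.1%) were lower and none higher in APAP_MSC than in APAP_HDF. Eif4ebp1, an inhibitor of translation initiation that mTORC1 inactivates, had 47.8 ± 1.45 CPM in APAP_MSC, 78.3 ± 3.27 CPM in APAP_HDF and 64.7 ± 4.59 CPM in APAP. Its log2 difference from APAP_HDF was -0.71 ± 0.09 (edgeR adjusted p = 0.00171) and from APAP -0.44 ± 0.09 (edgeR adjusted p = 0.0198). Sesn2, an inhibitor of mTORC1, differed by -0.64 ± 0.14 and Rptor, a subunit of mTORC1, by -0.39 ± 0.10 between APAP_MSC and APAP_HDF (edgeR adjusted p = 0.0208 and 0.0297). Larp4b, the fourth, differed by -0.55 ± 0.14 (edgeR adjusted p = 0.0331), and Larp1 by -0.06 ± 0.10 (edgeR adjusted p = 0.749).

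In the p53 branch 1 of 5 tested genes (20%) was lower and none higher in APAP_MSC, both against APAP and against APAP_HDF. This gene was Cdkn1a, the cell cycle inhibitor p21, at 48.0 ± 4.88 CPM in APAP_MSC. It stood at 85.2 ± 11.0 CPM in APAP and 93.1 ± 19.5 CPM in APAP_HDF (SD, n = 3; edgeR adjusted p = 0.0175 and 0.00587). Mdm2 differed by -0.28 ± 0.09 and -0.20 ± 0.09 in the same comparisons (edgeR adjusted p = 0.0828 and 0.190). Of 10 genes of the MYC network 3 (30%) were lower in APAP_MSC than in APAP_HDF, among them Mnt and Mga (edgeR adjusted p = 0.00639 and 0.0286). Myc itself differed by -0.55 ± 0.25 (edgeR adjusted p = 0.194).

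Markers of other liver cells also differed between groups. Between APAP_MSC and APAP_HDF the differences were as follows. The 6 sinusoidal endothelial markers summed to 93.3 to 103 CPM in APAP_MSC and 124 to 177 CPM in APAP_HDF, and 2 of 6 were lower. The 10 monocyte and macrophage markers summed to 143 to 162 CPM and 128 to 172 CPM, with 2 lower and 1 (Spp1, which is also listed for cholangiocytes) higher. Spp1 held much of these sums, at 78.6 to 84.8 CPM in APAP_MSC and 41.6 to 44.7 CPM in APAP_HDF. Of the 10 markers, 9 had a negative log2 difference and 1 a positive, with a median of -0.71. The 7 neutrophil markers had 1 of 5 tested genes lower, while Ly6g and Mpo were at 0 in most libraries. The 5 cholangiocyte markers, Spp1 included, summed to 116 to 131 CPM and 99.4 to 104 CPM, with 3 higher and none called lower. Among them Sox9 went the other way without overlap, at 26.2 to 40.0 CPM in APAP_MSC and 51.1 to 59.6 CPM in APAP_HDF. The 6 erythroid markers summed to 167 to 275 CPM and 89.4 to 110 CPM, with 1 of 5 tested genes higher. Of 8 hepatocyte markers 1 was higher, of 7 stellate cell and fibroblast markers 1 was higher, and none was called among Kupffer, T and NK, or B and plasma cell markers. Against APAP, APAP_MSC had 5 of 10 monocyte and macrophage markers lower (median -1.21), with sums of 175 to 247 CPM in APAP, and 3 of 5 tested neutrophil markers lower (median -1.89), with sums of 2.73 to 4.13 CPM in APAP_MSC and 9.20 to 12.1 CPM in APAP. In the same comparison 1 of 6 sinusoidal endothelial and 1 of 7 stellate cell and fibroblast markers were lower and 1 of 5 tested erythroid markers was higher. No marker was called between APAP_HDF and APAP. The part of these differences in those of the ribosomal protein rows and of the related gene groups was not tested.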

How the data were processed

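RNA from pieces of liver was extracted with TRIZOL, and libraries were of the Tecan type universal plus mRNA-seq, per the labels' protocols. HISAT2, Subread and DESeq2, and the builds mm39 and GRCm39, are named per the submitters' processing notes, without versions or roles. The authors deposited raw counts per gene and a table of normalized values (a scaled signal, equal to the deposited counts divided by 1 factor per library, within 0.07% of median-of-ratios factors), which served only as a check. Strand handling in counting is not given in the sources used here.

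Counts were analysed with edgeR 4.0.16 in R 4.3.3: filterByExpr kept 17582 genes with 99.966% of counts, TMM factors were applied, and 1 quasi-likelihood model (robust) was fitted to all 9 libraries, with 2-sided tests and Benjamini-Hochberg adjustment over all 17582 genes. The common biological coefficient of variation was 0.197. CPM are counts per 1000000 after TMM scaling, and log2 levels use a prior count of 2. Alternatives were DESeq2 1.42.0, limma-voom 3.58.1, other scalings, no filter, fits to the compared groups alone and leaving out each library. The procedure was tested on simulated counts in which genes varied independently of each other. That test therefore does not cover the shift that the ribosomal protein rows had in common. A count of 0 allows 3 counts, 0.0475 to 0.0563 CPM, which covers counting error only.

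The members and lists were chosen with earlier results of these data known. Named were, per comparison, the members past the test (the 6 largest in each direction with a mean of at least 5 CPM) or, with fewer than 4, the 4 of smallest p, a set of members listed by role, the 5 highest and 5 lowest by level and by spread, and up to 2 genes of smallest p from each other list. Rps24, Rpl41, Rpl27a, Rpl35, Rptor, Larp4b, Larp1 and Myc were named after their values were seen. Library numbers follow column order within a group, since the column headers carry no replicate number. Promoter windows are from RefSeq (GRCm38.p6), transcript lengths and shared 50-base stretches from GENCODE M21. As the build of the counts is another, no coordinate was joined to them. Some genes that the naming rule takes are not reported here.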

Additional observations from a re-analysis of the deposited data

How the results depend on the processing

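The number of ribosomal protein rows called between APAP_MSC and APAP_HDF was 5, and it was 5 with RLE factors, 6 with limma-voom and 6 in a fit to the compared groups alone. It was 8 with upper-quartile factors, 9 without the filter and 20 with DESeq2, and 0 with library size alone and 0 when the rows' summed counts served as library size. With 1 library left out it was 0 to 11. Between APAP_MSC and APAP 1 row was called in the fit to those groups alone and 0 to 1 with 1 library left out. Between APAP_HDF and APAP no row was called under any alternative. The median log2 difference between APAP_MSC and APAP was -0.0016 with library size alone and 0.0552 to 0.1888 with 1 library left out. Between APAP_HDF and APAP it was -0.00029 with the rows' summed counts and -0.2314 to -0.1143 with 1 library left out. Between APAP_MSC and APAP_HDF it was 0.1272 with library size alone, 0.0060 with the rows' summed counts and 0.2025 to 0.3178 with 1 library left out. The scaling to the rows' summed counts sets their own total equal in all libraries, and a library left out means fewer samples; for the other settings the cause was not tested.

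Sign changes were read only for the members listed by role and those named by the test or smallest p in that comparison. Rows of this set that changed sign had no adjusted p under 0.05 in the comparison concerned. Rows outside the set also changed sign. With library size alone, 43 of 89 rows were positive in APAP_MSC against APAP, where 76 were in the main fit. With the rows' summed counts, 44 were positive in APAP_HDF against APAP (6 in the main fit) and 47 in APAP_MSC against APAP_HDF (86). In the set, those that changed sign with upper-quartile factors were Rpl7l1 in APAP_HDF against APAP (-0.016) and Rps6 in APAP_MSC against APAP_HDF (0.0028). Without the filter they were Rps3 in APAP_MSC against APAP (0.00022) and Rpl7l1 in APAP_HDF against APAP (-0.0037). With library size alone, the values in APAP_MSC against APAP were -0.024 for Rpsa, -0.095 for Rps4x and -0.026 for Rpl11, and in APAP_MSC against APAP_HDF -0.00094 for Rps3, -0.022 for Rpl5 and -0.052 for Rpl13a. With the rows' summed counts, Rps4x was at -0.063 in APAP_MSC against APAP. In APAP_HDF against APAP that setting gave 0.027 for Rps3, 0.047 for Rps6, 0.10 for Rps14, 0.031 for Rps19, 0.13 for Rps27, 0.12 for Rps27l, 0.10 for Rpl10, 0.0059 for Rpl11, 0.034 for Rpl22, 0.041 for Rpl22l1, 0.0087 for Rplp1 and 0.068 for Rplp2. In APAP_MSC against APAP_HDF it gave -0.12 for Rps3, -0.041 for Rps14, -0.066 for Rps27, -0.031 for Rps4x, -0.091 for Rpl3, -0.14 for Rpl5, -0.11 for Rpl7l1, -0.030 for Rpl10, -0.0025 for Rpl11, -0.17 for Rpl13a, -0.060 for Rplp0 and -0.015 for Rps19bp1. With 1 library left out, the ranges in APAP_MSC against APAP were -0.00010 to 0.18 for Rpsa, -0.086 to 0.040 for Rps3, -0.077 to 0.11 for Rps4x, -0.14 to 0.068 for Rpl5 and -0.091 to 0.076 for Rplp0. In APAP_HDF against APAP they were -0.11 to 0.041 for Rps27, -0.12 to 0.076 for Rps27l and -0.083 to 0.070 for Rpl7l1, and in APAP_MSC against APAP_HDF -0.077 to 0.049 for Rps6 and -0.19 to 0.089 for Rps4l.

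No paired analysis was possible because the column headers carry no replicate number. With 3 libraries per group, the SE of 0.09 to 0.14 for rows of at least 50 CPM limits what could be called, and rows of low count such as Rpl32l and Rpl24 are less precise.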
